A study of Mus musculus with 20 samples.

Results

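The annexin genes Anxa1, Anxa2, Anxa4, Anxa5, Anxa6, Anxa7 and Anxa11 and the S100 genes S100a4, S100a6 and S100a10 were followed through 20 mouse RNA-seq libraries. These 10 genes are 10 of 25869 rows of a table of expression values, matched by gene symbol. They were selected on these data: Anxa2 was chosen by its much higher CPM in 2 primary tumours than in 2 lymphoma cell lines, and the others as its family and partners, so the tumour and line values are given as a description without a test. The study placed a CRISPR activation cassette, dCas9a-SAM, in mice and used an sgRNA for Bcl-2 to raise that gene in Eµ-Myc lymphoma cells.

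The libraries fall into 4 kinds. There were 6 lymphoma cell lines of genotype Eµ-Myc/dCas9a-SAM KI/+/sgBcl-2, each from a different mouse, of which 4 were labelled IgM-positive and 2 IgM-negative. The lines carry mouse numbers and are called lines A to F here in rising order of that number, with lines A to D IgM-positive and lines E and F IgM-negative. In Eµ-Myc mice the Myc transgene is driven by an immunoglobulin heavy chain enhancer, and the lymphomas grew in irradiated recipients of transduced stem and progenitor cells, so tumour tissue can still hold host cells. Another 2 libraries were IgM-positive primary tumours of the same genotype, called tumours 20 and 21 after their library numbers. The labels of each tumour give different mouse numbers in different fields, and neither tumour was paired with a line. Another 2 libraries were cultured preB-ALL, a mouse leukaemia of precursor B cells with BCR-ABL1 (p190T/+), labelled P190CreERLSLErg and P190RagCreErg. Their labels name no dCas9a-SAM allele. The remaining 10 were mouse embryonic fibroblasts (MEFs) from E14 embryos. Of these, 2 were WT, 2 carried dCas9a-SAM KI/+ without an sgRNA, 2 carried it with a non-targeting sgRNA (sgNT) and 4 carried it with sgBcl-2. Each MEF group came from 2 numbered MEF lines, so the 4 sgBcl-2 libraries are 2 from each line.

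Annexins are proteins that bind the inner face of membranes when calcium rises, and they act in membrane repair, vesicle traffic and the joining of membrane to the actin skeleton. S100 proteins are small calcium-binding proteins that bind annexins and other targets. The best known pair is Anxa2 with S100a10, also called p11, which form a complex under the plasma membrane where plasminogen is activated, and S100a6 and S100a4 bind Anxa2 and non-muscle myosin respectively. Fibroblasts are rich in these proteins.

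Anxa2 (Entrez 12306) lies at chr9:69453683-69491792 on the plus strand, and S100a4 (20198), S100a6 (20200) and S100a10 (20194) lie on chromosome 3 at chr3:90603770-90606045, chr3:90612894-90614414 and chr3:93555117-93564645 (GRCm38). Of the 10 genes, 8 have promoter sequences in the reference table from RefSeq (GRCm38.p6), with 10 start sites. S100a10 and Anxa6 are named only. The 250 bases before the start are shown 5′ to 3′ on the gene's strand for the 4 genes with the largest fold between lines and both preB-ALL and sgBcl-2 MEFs, and for Anxa11, which had like values in lines and MEFs. Capitals mark matches on either strand to the AP-1 motif TGANTCA, the E-box CACGTG, the GC box GGGCGG, the TATA box TATAAA and the TEAD motif GGAATG.
Anxa2, chr9:69453433-69453682, plus strand: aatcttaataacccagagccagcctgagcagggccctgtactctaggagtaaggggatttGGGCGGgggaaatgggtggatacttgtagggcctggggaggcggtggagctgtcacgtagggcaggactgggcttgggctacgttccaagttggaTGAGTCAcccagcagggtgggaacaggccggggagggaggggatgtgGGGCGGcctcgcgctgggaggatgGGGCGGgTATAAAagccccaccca
S100a6, chr3:90612644-90612893, plus strand: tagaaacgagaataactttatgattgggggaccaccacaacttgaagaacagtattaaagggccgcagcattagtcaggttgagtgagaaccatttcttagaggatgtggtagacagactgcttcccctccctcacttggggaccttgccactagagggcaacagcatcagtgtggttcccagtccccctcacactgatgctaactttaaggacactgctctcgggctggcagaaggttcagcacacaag
S100a4, chr3:90603520-90603769, plus strand: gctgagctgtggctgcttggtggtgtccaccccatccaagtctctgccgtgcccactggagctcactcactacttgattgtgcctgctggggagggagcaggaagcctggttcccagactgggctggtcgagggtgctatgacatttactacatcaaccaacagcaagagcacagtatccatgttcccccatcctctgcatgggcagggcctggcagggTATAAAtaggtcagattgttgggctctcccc
Anxa1, chr19:20390672-20390921, minus strand: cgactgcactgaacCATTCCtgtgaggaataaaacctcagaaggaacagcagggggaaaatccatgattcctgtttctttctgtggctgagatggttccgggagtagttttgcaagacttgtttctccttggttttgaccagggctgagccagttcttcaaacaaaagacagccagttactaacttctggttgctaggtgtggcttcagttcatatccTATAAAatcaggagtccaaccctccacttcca
Anxa11, chr14:25841905-25842154, plus strand: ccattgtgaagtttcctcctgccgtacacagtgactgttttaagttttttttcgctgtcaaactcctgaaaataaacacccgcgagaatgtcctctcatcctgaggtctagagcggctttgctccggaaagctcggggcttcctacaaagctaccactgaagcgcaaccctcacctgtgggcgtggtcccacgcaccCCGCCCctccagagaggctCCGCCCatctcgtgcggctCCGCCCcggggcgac

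The letters TATAAA were found before 3 of the 8 genes, beginning 17 bases before the start in Anxa2, 31 in S100a4 and 32 in Anxa1, and 12.4% of the 32851 windows in the table hold them. The AP-1 letters were found before Anxa2 alone, 95 bases before its start, and 6.75% of all windows hold them. The GC box was found before Anxa2, Anxa7 and Anxa11, beside 32.7% of all windows. The E-box was found before 1 gene, Anxa7, beside 6.02% of all windows, and the TEAD motif before 1 gene, Anxa1, beside 12.6%. None of the 5 motifs was found in the windows of Anxa4, Anxa5 or S100a6, and no matches overlapped in the sequences shown. These are matches of letters and were not tested against the levels.

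Values are the deposited CPM, that is, reads of a gene scaled to the reads counted on all genes of the library. Libraries held from 12474885 reads to 26678417 reads on genes. A count of 3 reads, taken as the floor, is 0.240 CPM in the shallowest library. The sgRNA target Bcl2 had 46.8 to 71.8 CPM in the sgBcl-2 MEFs and 13.4 to 13.7 CPM in the sgNT MEFs. B cell markers summed to 1210 to 2084 CPM in the lines, 5445 to 5754 CPM in the tumours and 4093 to 7386 CPM in preB-ALL. The second WT MEF library stood apart. It had lower values than each of the other 9 MEF libraries for 9 of the 10 genes, its fibroblast markers summed to 2523 CPM beside 8514 to 16418 CPM in the others, and its macrophage and myeloid markers summed to 260 CPM beside 9.28 to 14.6 CPM. The share of all genes lowest in this library was not counted. The 9 of 10 is thus not read as particular to these genes.

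Anxa2 had its highest values in MEFs and was close to absent from the lymphoma lines. In the 10 MEF libraries its lowest value was 943 CPM, the median 1674 CPM and the highest 1992 CPM. It had 304 and 233 CPM in preB-ALL and 181 and 257 CPM in the tumours. In the 6 lines it had between 0.313 and 0.675 CPM with a median of 0.483 CPM, which was 8 to 18 reads per library, above the floor of 3 reads. The tumour and preB-ALL ranges overlapped, while MEFs lay above both and the lines lay below both.

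S100a10, the partner of Anxa2, was also lower in the lines than in the other kinds, but by a smaller gap. It had between 25.6 and 83.3 CPM in the 6 lines with a median of 49.2 CPM, and 177 and 229 CPM in preB-ALL. The tumours had 308 and 450 CPM, within the MEF range of 144 to 466 CPM (median 389 CPM). Per kb of exon, the ratio of S100a10 to Anxa2 was 0.471 to 0.766 in MEFs, 1.79 to 3.02 in preB-ALL, 5.24 to 5.39 in tumours and 176 to 790 in the lines. The ranges of this ratio did not overlap between any of the 4 kinds. As Anxa2 was chosen by its tumour and line values, nothing is read from the gap between tumours and lines.

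S100a6, which binds Anxa2 and other annexins, had 495 and 720 CPM in the tumours, above the 143 and 192 CPM of preB-ALL. In 5 of the lines it had between 0.388 and 0.600 CPM, and in line A it had 7.62 CPM. The MEFs ranged from 356 to 1606 CPM with a median of 1358 CPM, and the second WT library, the lowest, was the only one below either tumour. S100a4, a binding partner of non-muscle myosin, had 0.243 to 0.937 CPM in the lines, and its values in the tumours were far apart, at 99.05 and 19.2 CPM. It had 276 and 240 CPM in preB-ALL and a median of 1307 CPM in MEFs.

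Anxa1, which carries an anti-inflammatory signal through formyl peptide receptors, had a median of 0.734 CPM in the lines, but lines B and D had 9.63 and 4.73 CPM. The tumours had 59.1 and 58.5 CPM, preB-ALL had 416 and 257 CPM and the MEF median was 1319 CPM. Anxa5, the phosphatidylserine-binding protein used to stain dying cells, had 0.388 to 4.12 CPM in the lines and 7.93 and 2.34 CPM in the tumours, so these ranges overlapped. It had 85.2 and 48.7 CPM in preB-ALL and a median of 805 CPM in MEFs.

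Anxa4, found on secretory and plasma membranes, had 0 reads in line E, which allows up to 0.117 CPM, and up to 5.50 CPM in the other lines. Its tumour values of 7.05 and 2.49 CPM overlapped those of the lines, and it had 35.9 and 36.8 CPM in preB-ALL and a median of 77.0 CPM in MEFs. Anxa6, which binds late endosomes and the plasma membrane, was the most even annexin in the lines, with 65.7 to 84.8 CPM. It had 264 and 223 CPM in the tumours, 288 and 203 CPM in preB-ALL and a median of 429 CPM in MEFs. The tumour and preB-ALL values of Anxa6 overlapped.

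Anxa7 and Anxa11 are the annexins with long amino-terminal regions. Anxa7 had 36.7 to 59.5 CPM in the lines, 47.0 and 71.1 CPM in the tumours, 119 and 138.4 CPM in preB-ALL and a median of 200.2 CPM in MEFs. Anxa11 was the only one of the 10 whose mean was lowest in MEFs, with a median of 37.7 CPM there and 44.9 CPM in the lines, and these ranges overlapped. It had 65.4 and 97.5 CPM in the tumours and 114 and 84.2 CPM in preB-ALL.

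**Figure D1:**
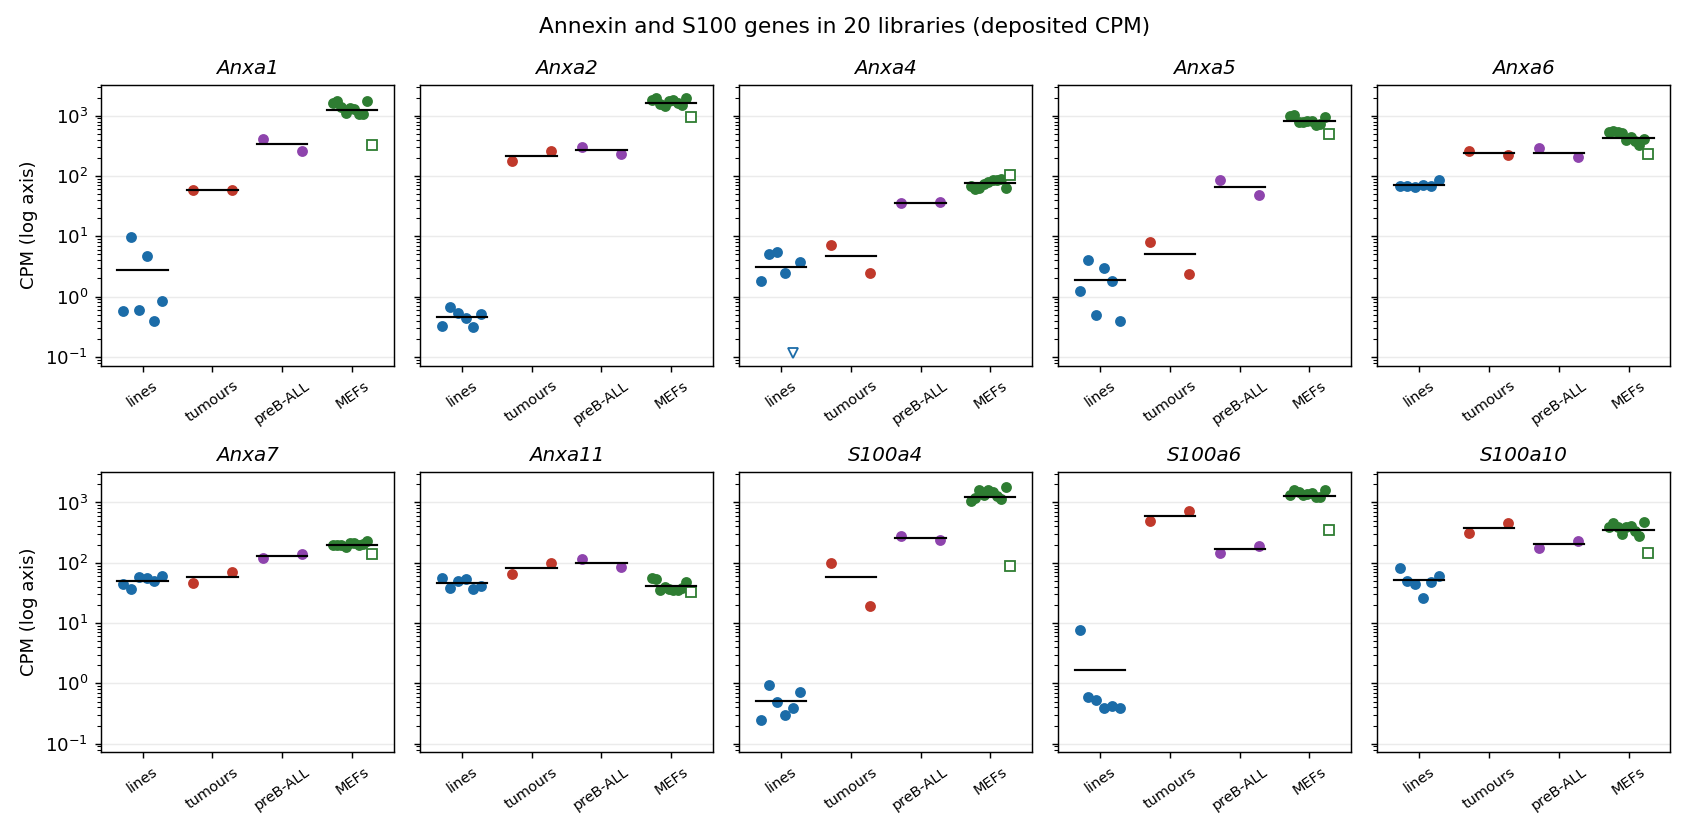
Deposited CPM of each gene on a log axis, with 1 point per library, bars for the mean of each kind, an open square for the second WT MEF library and an open triangle at the floor of 3 reads for Anxa4 in line E. The lines lie far below the other kinds for Anxa2, S100a4, S100a6 and Anxa1, while Anxa11 has 37.4 to 55.7 CPM in the lines and 32.4 to 55.1 CPM in MEFs.

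By mean CPM, 8 of the 10 genes had their highest level in MEFs, while S100a10 was highest in tumours and Anxa11 in preB-ALL. The share of all genes highest in MEFs was not counted, so nothing is read from this number. For S100a10 the tumour and MEF ranges overlapped, and without the second WT MEF library its MEF mean was the highest. Levels of different genes were compared per kb of exon. In MEFs S100a4 stood first with 2151 CPM per kb, followed by S100a6 with 951, Anxa5 with 454, Anxa2 with 440 and Anxa1 with 435 CPM per kb. The order of Anxa5, Anxa2 and Anxa1 changed with the MEF libraries used. Without the second WT library they had 474, 461 and 471 CPM per kb, and in sgBcl-2 MEFs 430, 449 and 408 CPM per kb. In the lines S100a10 stood first with 42.9 CPM per kb, followed by Anxa6 with 24.3, Anxa11 with 11.0 and Anxa7 with 8.43 CPM per kb, and the other 6 genes had 1.22 CPM per kb or less.

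Tumours were set beside lines A and B, whose mouse numbers are those in the tumours' labels. Both tumours lay above both lines for 8 of the 10 genes. The same was true of 30.9% of the 12752 genes with at least 10 reads in 2 of these 4 libraries. As this contrast chose the genes, nothing is read from these counts. The ratio of mean CPM was 438 for Anxa2, 148 for S100a6, 100.2 for S100a4 and 11.5 for Anxa1. As each of the 4 libraries was left out, the ratio ranged from 324 to 675 for Anxa2 and from 79.7 (without line B) to 1013 (without line A) for S100a6. It ranged from 32.6 (without tumour 20) to 243 (without line B) for S100a4 and from 6.11 (without line A) to 104 (without line B) for Anxa1. It was 5.69 for S100a10, 3.51 for Anxa6, 1.75 for Anxa11 and 1.44 for Anxa7. Anxa4 and Anxa5 had ratios of 1.39 and 1.91. As each library was left out, these ranged from 0.728 to 2.62 and from 0.871 to 4.09. Tumour and line values of both genes overlapped. Just inside this division was Anxa7, whose lower tumour had 47.0 CPM beside 45.1 CPM in line A, and just outside it was Anxa5, whose lower tumour had 2.34 CPM beside 4.12 CPM in line B.

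Against the other 4 lines, 7 of the 10 genes had both tumours above all lines, beside 29.6% of 12777 genes. Anxa7 left the count, with 47.0 CPM in tumour 20 and a mean of 55.3 CPM in those lines. The ratio for S100a6 was 1392 against these lines, as the value of 7.62 CPM in line A was absent from them, that for Anxa2 was 484, that for S100a4 was 124 and that for Anxa1 was 35.7. When genes were ranked by the ratio of tumours to lines A and B, with 0.1 CPM added to each mean, Anxa2 was number 4, S100a6 number 12 and S100a4 number 21 of 12752. Anxa1 was number 256, S100a10 number 537 and Anxa6 number 884. As the tumour and line values chose the genes, nothing is read from this count or these ranks. In bulk libraries, more cells of a type that expresses a gene and more RNA per cell cannot be told apart.

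**Figure D2:**
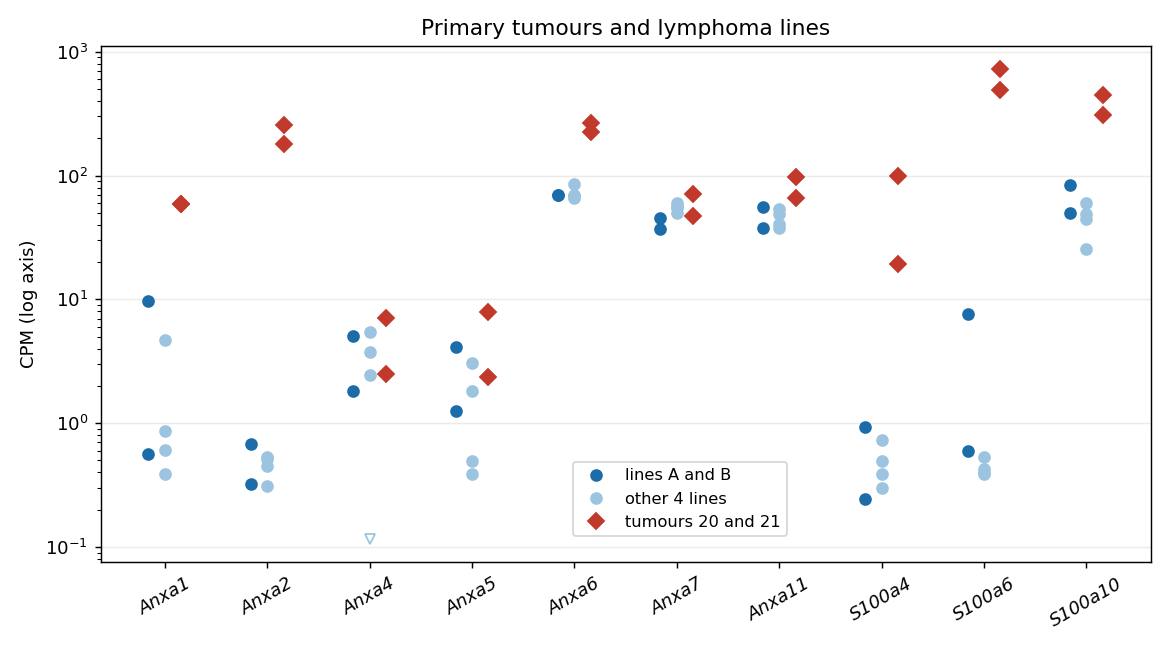
CPM of each gene on a log axis in lines A and B, the other 4 lines and the 2 tumours, 1 point per library, with an open triangle at the floor for Anxa4 in line E. Tumours had 181 and 257 CPM of Anxa2 where the 6 lines had 0.675 CPM or less, and the points overlap for Anxa4 and Anxa5.

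Marker genes of other cells were summed in the tumours and lines. The 12 fibroblast markers summed to 172 CPM in tumour 20 and 16.1 CPM in tumour 21, of which Thy1, which lymphocytes can also express, made 169 and 12.8 CPM, and the lines had sums of 3.56 to 55.7 CPM. Col1a1 had 0.5257 and 0.698 CPM in the tumours. The 12 macrophage and myeloid markers summed to 43.4 CPM at most in the tumours and to between 2.81 and 15.8 CPM in the lines, with Adgre1 at 13.3 and 6.33 CPM in the tumours and at 0 in every line. The 10 T and NK cell markers summed to 2.69 and 5.43 CPM in the tumours beside 1.05 CPM or less in the lines. The 7 endothelial markers summed to 33.2 to 43.6 CPM in the tumours, of which Pecam1 made 31.1 and 40.2 CPM, and to 2.89 to 43.1 CPM in the lines. The 5 erythroid markers summed to 2.32 and 3.54 CPM in the tumours beside 0.811 to 1.1245 CPM in the lines. Of the 8 B cell markers, 6 were higher in both tumours than in lines A and B. Ms4a1, the gene of CD20, had the widest gap, with 529 and 799 CPM in the tumours and 4.06 and 7.46 CPM in these lines. Ebf1 was lower in both tumours, with 41.6 and 85.7 CPM beside 114 and 107 CPM, and Pax5 overlapped, with 136 and 122 CPM beside 90.6 and 125 CPM. The part of these other cells in the values of the 10 genes was not tested. The fibroblast collagen genes Col1a1, Col1a2 and Col3a1 were at 0.0261% or less of the sgBcl-2 MEF mean in the tumours, while Thy1 was at 9.70% and Fap, with 0.908 CPM in those MEFs, at 18.6%. On the same scale Anxa2 was at 13.1% and S100a6 at 46.1%.

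The lines were compared with preB-ALL, as in the study, to set the lymphoma beside a leukaemia of earlier B cells. With limma and Benjamini-Hochberg adjustment over 13961 genes, 9 of the 10 genes were lower in the lines and none was higher. Over all genes tested, 22.5% were called lower and 20.9% higher. All 10 also passed the filter on low values in a fit of the lines alone. The median log2 fold change was -4.50 for the 10 genes and -0.07 for all genes tested. Lines A and B also entered the contrast that chose the genes, and the same count of 9 was obtained without them.

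Anxa2 was 574-fold lower by mean CPM, and its log2 fold change was -8.56 (SE 0.40, limma adjusted p = 1.8e-06). S100a4 was 501-fold lower, with a log2 fold change of -8.48 (SE 0.50, limma adjusted p = 5.9e-06). Anxa1 had a log2 fold change of -7.44 (SE 1.14, limma adjusted p = 0.0012) and S100a6 had -7.22 (SE 1.03, limma adjusted p = 0.00080). For all 10 genes, Anxa4 included, the highest line lay below the lower preB-ALL library by CPM, as did 38.3% of all genes tested. Anxa5 had a log2 fold change of -5.10 (SE 0.86, limma adjusted p = 0.0019).

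Smaller differences were found for the genes that the lines did express. S100a10 had a log2 fold change of -1.67 (SE 0.37, limma adjusted p = 0.0074), Anxa6 of -1.41 (SE 0.18, limma adjusted p = 0.00039) and Anxa7 was 2.55-fold lower by mean CPM (SE 0.21 on the log2 scale, limma adjusted p = 0.0063). Anxa11 had -0.76 (SE 0.22, limma adjusted p = 0.024), and without the first preB-ALL library it was -0.53 with a limma adjusted p of 0.17. Without the second preB-ALL library, S100a10 and Anxa7 had limma adjusted p-values of 0.088 and 0.062. Anxa4 was not called, with -3.89 (SE 1.42, limma adjusted p = 0.055), and without line E, where it had 0 reads, it was -3.02 with a limma adjusted p of 0.0026.

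**Figure D3:**
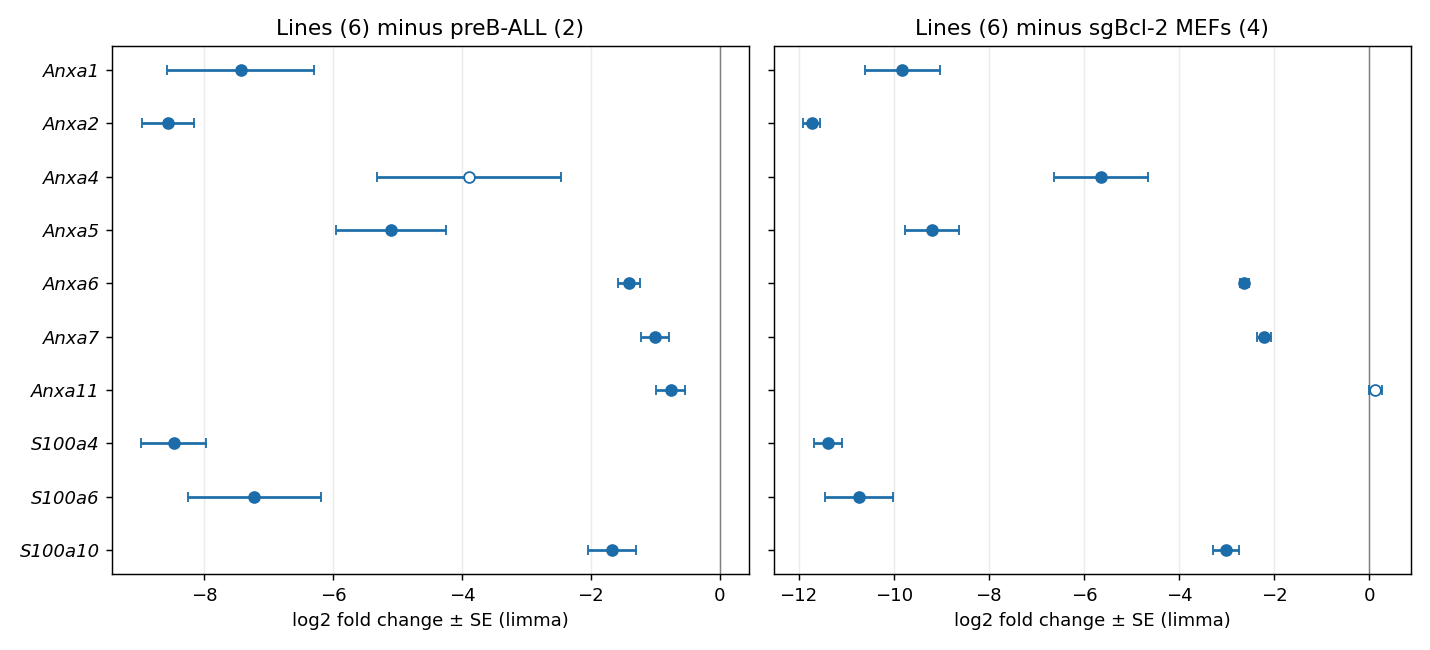
log2 fold change with its SE from limma for the 6 lines minus 2 preB-ALL libraries (left) and minus 4 sgBcl-2 MEF libraries (right), where filled points had an adjusted p under 0.05. Anxa2 lies at -8.56 and -11.72, and Anxa11 lies at -0.76 and 0.12.

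RNA kit, culture medium, the lane in the library labels and sequencing depth differed between preB-ALL and the lymphoma lines. None of these can be told apart from the leukaemia. The preB-ALL libraries held 14970269 and 12474885 reads on genes, and the lines 20083235 to 26678417. All 15 mitochondrial genes were at 0 reads in preB-ALL. Without TMM scaling the median log2 fold change of all genes moved from -0.07 to -0.42, and the calls moved from 2914 higher and 3145 lower to 1691 higher and 4400 lower. All 10 members were lower and called without that scaling. When tumours took the place of lines A and B, 2 of the 10 genes were called, Anxa5 and Anxa7, both lower, beside 14.9% of all 14161 genes called lower and 11.0% higher in that fit. As the tumour values chose the genes, nothing is read from that count.

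The preB-ALL libraries also held transcripts of fibroblast genes. The 12 fibroblast markers summed to 2800 and 1288 CPM in preB-ALL, beside 55.7 CPM or less in the lines, with Col1a1 at 855 and 456 CPM, Dcn at 0 in both and Thy1 at 0.601 and 2.40 CPM. As a percentage of the sgBcl-2 MEF mean, preB-ALL had a median of 7.37% over these markers, with a range from 0 for Dcn to 40.4% for Pdgfrb. On the same scale Anxa5 had 8.77%, S100a6 12.7%, Anxa2 16.0%, S100a4 18.8% and Anxa1 28.3%. Anxa4 had 42.2%, S100a10 57.6%, Anxa7 62.7% and Anxa6 63.1%, all above the highest fibroblast marker, and Anxa11 had 272%. The first preB-ALL library was higher than the second for 10 of the 12 markers, from 1.27-fold for Loxl1 to 6.11-fold for Postn among those with reads in both, with 1.88-fold for Col1a1, 2.24-fold for Col1a2 and 2.46-fold for Col3a1. Of these 10, Lum and Fap had 0.0668 CPM in the first library, below the floor of 3 reads, and 0 in the second. Between the same libraries, Anxa5 was 1.75-fold higher in the first, Anxa1 1.62-fold, Anxa6 1.42-fold, Anxa11 1.36-fold, Anxa2 1.30-fold and S100a4 1.15-fold. The other 4 genes, Anxa4, Anxa7, S100a6 and S100a10, were higher in the second library. The part of fibroblast RNA in the preB-ALL values was not tested.

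**Figure D4:**
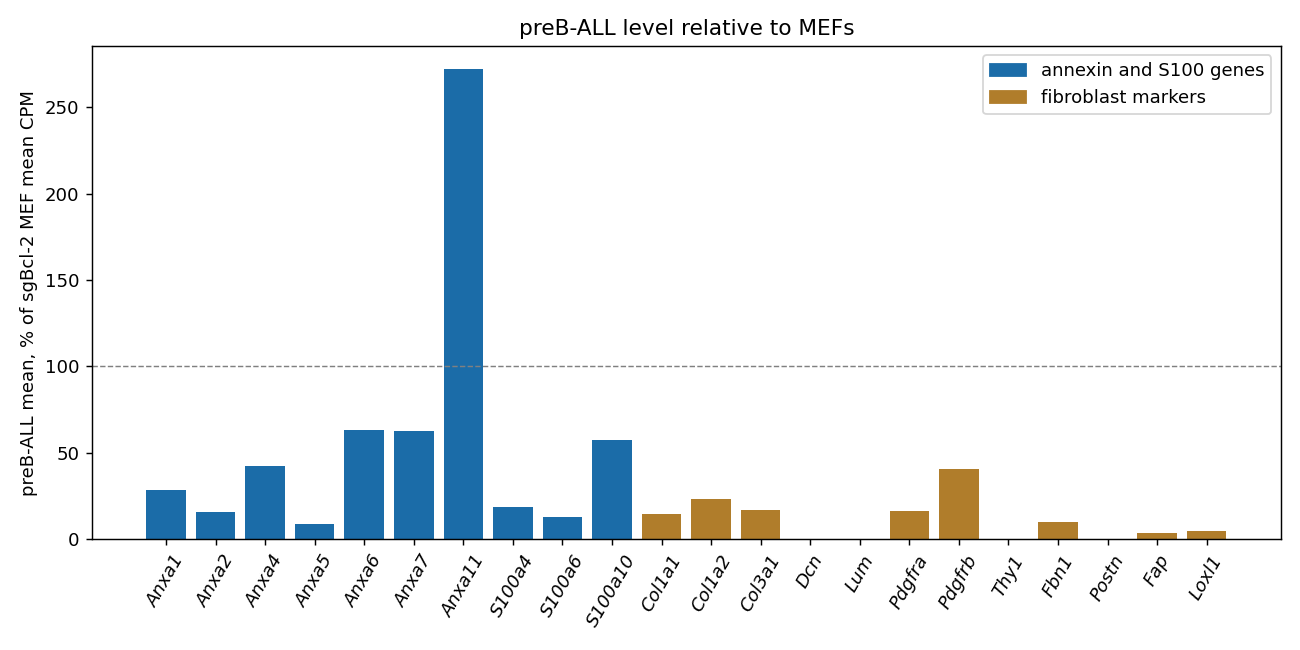
Mean CPM in the 2 preB-ALL libraries as a percentage of the mean of the 4 sgBcl-2 MEF libraries, for the 10 annexin and S100 genes and the 12 fibroblast markers, with a dashed line at 100%. Anxa2 stands at 16.0% and Col1a1 at 14.4%, while Anxa11 stands at 272%.

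The lines were then compared with sgBcl-2 MEFs, which carry the same cassette and guide target in a fibroblast. In this comparison 9 of the 10 genes were lower in the lines by limma, with 45.0% of the 14620 genes tested called lower and 36.3% called higher. Anxa2 had a log2 fold change of -11.72 (SE 0.18, limma adjusted p = 2.5e-11), S100a4 of -11.39 (SE 0.29, limma adjusted p = 7.7e-11) and S100a6 of -10.73 (SE 0.71, limma adjusted p = 1.2e-07). Anxa1 and Anxa5 had log2 fold changes of -9.81 (SE 0.79) and -9.19 (SE 0.56), and Anxa4 of -5.64 (SE 0.98). S100a10, Anxa6 and Anxa7 had -3.01 (SE 0.27), -2.62 (SE 0.10) and -2.22 (SE 0.15). The limma adjusted p-values of these 6 genes were between 1.5e-09 and 0.00031. Anxa11 was not called, with 0.12 (SE 0.14, limma adjusted p = 0.41), and its sign turned with RLE scaling (-0.07) and with DESeq2 (-0.05). The median over all genes was -0.27 in this comparison, -0.10 without a scaling factor and -0.46 with RLE factors. The same count of 9 was found with sgNT or WT MEFs in place of sgBcl-2 MEFs and without lines A and B.

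IgM-negative and IgM-positive lines were compared to see whether surface IgM status went with these genes. By limma, 0 of the 10 genes were called, with adjusted p-values from 0.56 to 0.93, and 0.549% of 12386 genes were called lower and 0.0484% higher in IgM-negative lines. At an unadjusted p under 0.05, limma gave 0 of the 10 genes beside 11.3% of all genes, while edgeR, limma-voom and DESeq2, which tested 9 of them, called none after adjustment. Anxa6 had 68.2 and 84.8 CPM in the IgM-negative lines and 65.7 to 69.8 CPM in the IgM-positive lines, a log2 difference of 0.21 (SE 0.13). Anxa4 had a log2 difference of -2.44 (SE 1.40), which was 0.22 without line E. The median log2 difference over all genes was -0.02. The SE of the log2 difference was 1.22 for Anxa1, which had 9.63 CPM in line B, and 1.18 for S100a6, which had 7.62 CPM in line A, while it was 0.53 for Anxa2 and 0.65 for S100a4.

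Within MEFs, sgBcl-2 was compared with sgNT for the effect of the guide. Anxa4 was the only one of the 10 genes called by limma, where 6.61% of 14676 genes were called higher and 4.24% lower. It had 80.7, 85.0, 87.5 and 91.0 CPM in the sgBcl-2 libraries and 64.2 and 73.3 CPM in the sgNT libraries. The log2 fold change was 0.41 (SE 0.09, limma adjusted p = 0.024), and over the alternatives the adjusted p ranged from 0.0022 to 0.34. Without the sgNT library of MEF line 1 it was 0.29 (limma adjusted p = 0.20), without that of line 2 it was 0.54 (limma adjusted p = 0.053), and with all 10 MEF libraries in the fit it was 0.42 (limma adjusted p = 0.34). Anxa4 had 69.5 and 60.2 CPM without an sgRNA, and 62.5 and 102 CPM in WT MEFs.

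Anxa6 had 401, 447, 384 and 327 CPM with sgBcl-2 and 530 and 524 CPM with sgNT, again without overlap. Its log2 fold change was -0.36 (SE 0.10, limma adjusted p = 0.063), and with the MEF line as a block it was called (SE 0.09, limma adjusted p = 0.037). With the 2 sgBcl-2 libraries of each MEF line summed, it was -0.35 and not called (limma adjusted p = 0.079), and Anxa4 was still called (limma adjusted p = 0.047). Anxa2 had 1513 to 1832 CPM with sgBcl-2 and 1451 and 1548 CPM with sgNT, a log2 fold change of 0.24 (SE 0.10, limma adjusted p = 0.14). Anxa7 had 0.20 (SE 0.06, limma adjusted p = 0.085). The other 6 genes had log2 fold changes between -0.02 and 0.14. Without a scaling factor the calls over all genes moved from 970 higher and 622 lower to 710 higher and 1137 lower.

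**Figure D5:**
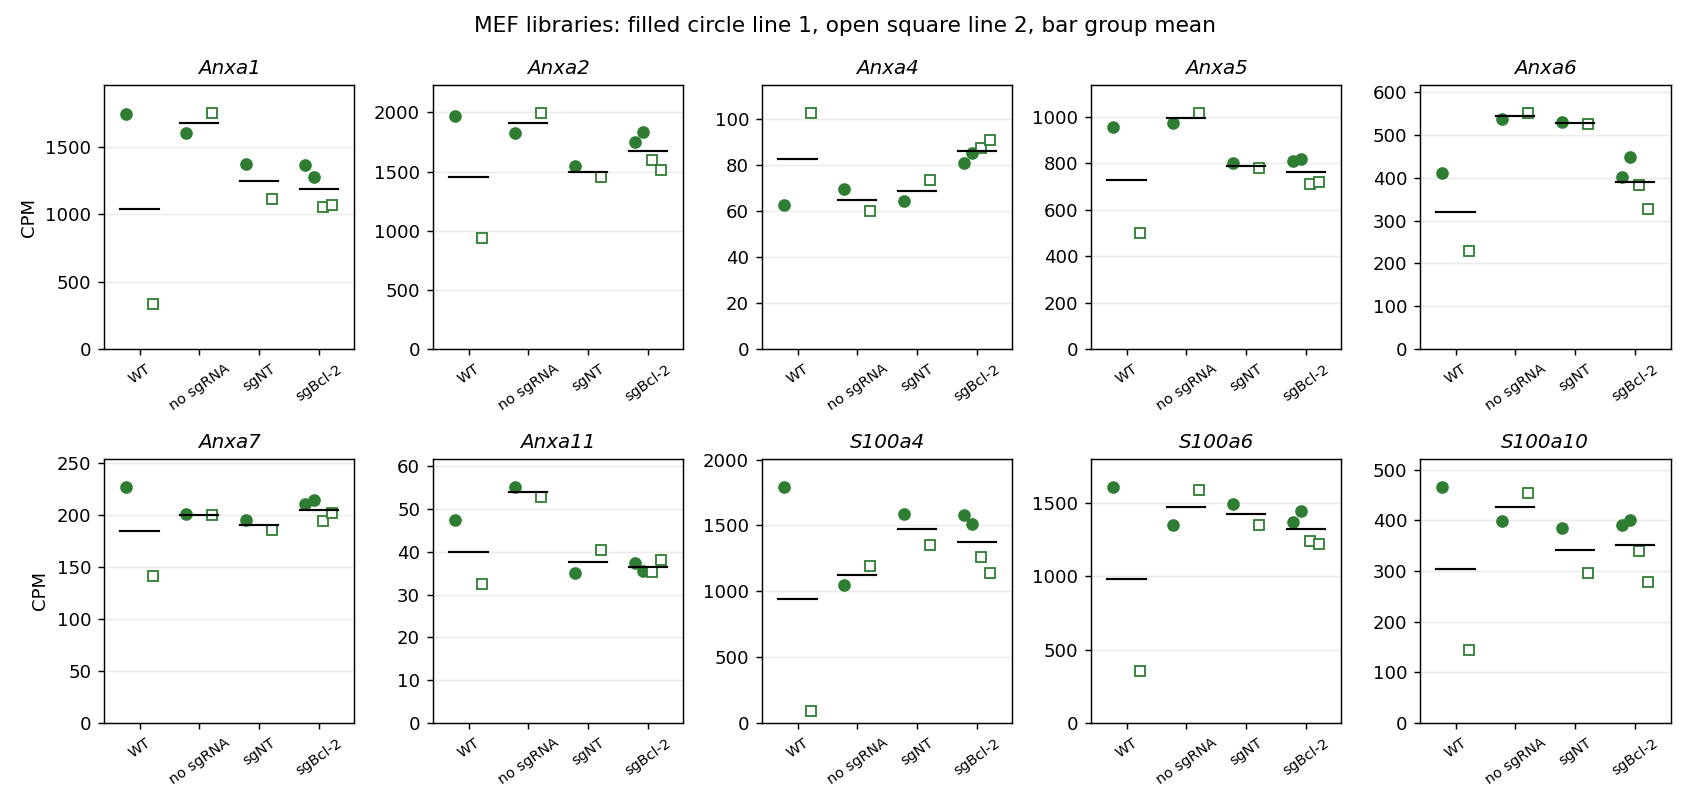
CPM of each gene in the 10 MEF libraries by group, with filled circles for MEF line 1, open squares for MEF line 2 and bars for group means, on axes that start at 0. Line numbers of WT MEFs are separate from those of the other groups. The second WT library has 87.9 CPM of S100a4 where the other 9 libraries have 1050 to 1792 CPM.

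The comparison of sgNT with WT MEFs asked whether the cassette with a non-targeting guide altered the cells. By limma, 0 of the 10 genes and 0.00% of 14560 genes were called in either direction, and 589 genes had an unadjusted p under 0.05. edgeR and limma-voom also called 0 genes, and DESeq2 called 59 higher and 29 lower, none of them among the 10. S100a4 had 1591 and 1350 CPM with sgNT and 1792 and 87.9 CPM in WT MEFs, a log2 difference of 1.89 (SE 1.57). Without the second WT library S100a4 was at -0.36 (limma adjusted p = 0.23), Anxa2 at -0.46 (limma adjusted p = 0.11) and S100a10 at -0.53 (limma adjusted p = 0.044), the only one called. Over all genes that fit called 4.67% of 14702 genes lower and 6.52% higher. With the second WT library as the only WT library, 8 of the 10 genes were called higher in sgNT MEFs, beside 26.9% of all 15768 genes called higher and 26.5% lower. The direction of these values thus turned on 1 library.

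Other genes of the families were counted beside these. Several were close to absent from the lines and entered the test only through preB-ALL or MEFs, where a lower value in the lines was fixed by the filter, so counts are given for the genes that also passed in a fit of the lines alone. Of 5 other annexin genes listed, 1 passed there, Anxa9, and it was not called, with a log2 fold change against preB-ALL of -0.07 (SE 0.86, limma adjusted p = 0.96). Of 14 other S100 genes listed, 2 passed there, S100a1 and S100a13, and both were lower than in preB-ALL by limma, at -3.04 (SE 0.64) and -3.62 (SE 1.10). Of 20 partners and membrane repair genes listed, 13 passed there, of which 3 were lower and 1 was higher than in preB-ALL, beside 22.5% and 20.9% of all genes tested. Those shares also cover genes that did not pass in the lines alone, so the sets are not alike. The calcium-activated protease subunit Capn2 had -6.86 (SE 1.60), the membrane repair gene Myof -3.97 (SE 1.06), the small calpain subunit Capns1 -0.86 (SE 0.19) and Cacybp, a partner of S100a6, 1.21 (SE 0.27). S100a1, Myof, Capns1 and Cacybp were singled out here after their values were seen.

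Genes near 0 in the lines are given by their levels. S100a16 had 1 read in all 6 lines together and 22.6 and 20.7 CPM in preB-ALL. Anxa3 had 0 to 6 reads per line and 24.7 and 19.8 CPM in preB-ALL, and the plasminogen activator gene Plat had 0 or 1 read per line and 11.7 and 8.10 CPM in preB-ALL. Plau, the other plasminogen activator gene, had 1 to 28 reads per line and 30.6 and 25.01 CPM in preB-ALL. S100a11, which binds Anxa1, had 0 to 128 reads per line and 97.3 and 115 CPM in preB-ALL. In sgBcl-2 MEFs the means were 27.9 CPM for S100a16, 378 CPM for Anxa3, 151 CPM for Plat and 232 CPM for S100a11.

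Against sgBcl-2 MEFs, among the genes that passed in the lines alone, 0 of 1 annexin gene, 2 of 2 S100 genes and 10 of 13 partners were lower in the lines by limma, and 2 partners were higher. Of all genes tested, which include genes that did not pass in the lines alone, 45.0% were lower and 36.3% higher. Capn2 had a log2 fold change of -9.13 (SE 1.13). Between sgBcl-2 and sgNT MEFs, where 6.61% of all genes were called higher, Anxa8 had 69.6 to 84.3 CPM with sgBcl-2 and 34.2 and 35.05 CPM with sgNT, a log2 difference of 1.25 (SE 0.09). It had 105 and 114 CPM in MEFs without an sgRNA and 111 CPM in the first WT library, above both groups, and 14.6 CPM in the second WT library, below both. Plau was called, at 0.62 (SE 0.10), with 78.3 to 96.4 CPM with sgBcl-2, 60.2 and 55.03 CPM with sgNT, 158 and 135 CPM without an sgRNA, and 114 and 21.1 CPM in WT MEFs. The calpain gene Capn1 was called at 0.40 (SE 0.07), and no other gene of these lists was called. None of the lists had a called gene between IgM-negative and IgM-positive lines or between sgNT and WT MEFs. These lists were drawn up with results of these data known.

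The genes most like Anxa2 over the 20 libraries were found by Pearson correlation of log2 values among 16482 genes, as a description. They were Vim, the intermediate filament vimentin, with r = 0.99, Echdc3 with 0.99, Setbp1 with 0.98, Sfxn3 with 0.98 and the lamin gene Lmna with 0.98. Vim had 63.8 to 193 CPM in the lines, 1121 to 1346 CPM in tumours and 1061 to 1191 CPM in preB-ALL. S100a4 was number 12, S100a6 number 15, Anxa1 number 19, Anxa6 number 41, S100a10 number 233 and Anxa5 number 429 of these genes. Anxa7 was number 1210, Anxa4 number 1756 and Anxa11, with r = 0.05, number 9093. Anxa11 had r = 0.82 over the 10 lymphoid libraries (lines, tumours and preB-ALL) and 0.76 over the 10 MEF libraries. Anxa4 had r = 0.86 over all 20, 0.59 over the lymphoid and -0.31 over the MEF libraries. The points share kind of cell and library depth. Within the 10 MEF libraries none of these top 5 genes remained among the first 5, where Capn2 led with r = 0.99. S100a10 was the member closest to Anxa2 there, number 21 with r = 0.98. The second WT library was lowest for both, with 943 CPM of Anxa2 (others 1451 to 1992) and 144 CPM of S100a10 (others 278 to 466). The part of that library in these r values was not tested. Over the 10 lymphoid libraries S100a10 was number 400 with r = 0.89, behind Anxa6 (22), S100a4 (39), S100a6 (99) and Anxa1 (183).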

How the data were processed

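RNA-seq libraries were aligned by the authors with Rsubread to GRCm38 and counted per Entrez gene, and the deposited values are CPM without a log or further scaling. How reads shared between genes were counted, and whether strand was used, is not given in the sources used here. All values (100% within 0.01 of a whole number) were whole multiples of 1 read, and these reads were recovered. Of 25869 Entrez identifiers, 25242 had a symbol in RefSeq's table (GRCm38.p6), and exon lengths came from GENCODE M21. The main test was limma (3.58.1, lmFit and eBayes with trend, in R 4.3.3) on log2(CPM + 0.1) with TMM scaling, on genes kept by filterByExpr and on the groups compared only, with a Benjamini-Hochberg threshold of 0.05. A fold change on this scale understates the change of low genes. edgeR (4.0.16), limma-voom and DESeq2 (1.42.0) on recovered reads were alternatives, and edgeR called 2683 genes higher and 2877 lower in lines against preB-ALL. The code was tested on simulated data. The members, gene lists and marker lists were chosen with earlier results of these data known. In each comparison all 10 members were named, and the rule for each other list was up to 3 called genes with the largest absolute log2 fold change. The report departs from it for genes near 0 in the lines, some of which are given by level or left out, and names other genes after their values were seen. Counts behind floors cover counting error only. No source states that the preB-ALL libraries or the 2 sgBcl-2 libraries of a MEF line are separate cultures, so p-values measure the spread between these libraries. MEF line numbers in the labels pair sgNT and sgBcl-2 libraries, whose deviations correlated (r = 0.27 across genes). Figures used Python 3.11.15 with matplotlib 3.10.9.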

Additional observations from a re-analysis of the deposited data

Results flagged for a closer look

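In each of 20 sets of values (10 genes in the 6 lymphoma lines and in the 4 sgBcl-2 MEF libraries) the highest and lowest library were compared with their neighbours, and by Dixon's criterion 2 sets held a library far from the others. By the construction of that criterion, chance gives about 1 such set in 20. S100a6 in line A had 7.62 CPM, where the next line had 0.600 CPM, and the gap was 0.971 of the whole range. Anxa6 in line F had 84.8 CPM, where the next line had 69.8 CPM, and the gap was 0.786 of the range.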

How the results depend on the processing

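Among the 10 genes, the counts called against preB-ALL stayed between 7 and 10 as each library was left out, and were 2 with tumours, whose values chose the genes, in place of lines A and B. DESeq2 gave no adjusted p for Anxa1 and S100a6 there and called the other 8. Against sgBcl-2 MEFs the count was 9 under every alternative run, while Anxa11 turned from 0.12 to -0.05 with DESeq2 and -0.07 with RLE factors. Between IgM-negative and IgM-positive lines it was 0 under every alternative run, and Anxa4 ranged from -5.09 to 0.22 as each line was left out. For sgBcl-2 against sgNT MEFs the count of 1 became 3 with DESeq2, 2 without a scaling factor, 0 with all 10 MEF libraries and 0 to 2 as each library was left out. With the MEF line as replicate block it was 2, as Anxa6 joined Anxa4, and the block changed no other call of the 10 genes. For sgNT against WT MEFs, which share only a line number (r = 0.043), the count was 0 with the replicate block and 0 to 8 as each library was left out. In those fits Anxa2 ranged from -0.46 to 0.80, S100a4 from -0.36 to 4.19 and S100a10 from -0.53 to 1.36. A lone library was assumed to vary like the other group. The 8 genes with both tumours above lines A and B became 7 with TMM-scaled CPM or the other 4 lines, and 8 to 10 without 1 tumour or line. Of the 5 genes most like Anxa2, 0 were among the first 5 over the 10 lymphoid libraries and 0 over the 10 MEF libraries. TMM scaling and leaving out the second WT MEF library, both chosen after seeing the data, each gave 9 genes highest in MEFs. Over all genes, calls (higher and lower) against preB-ALL moved from 2914 and 3145 to 1343 and 1834 without the second preB-ALL library. Between IgM groups they moved from 6 and 68 to 2 and 22 with edgeR, 1 and 0 with limma-voom and 172 and 577 with DESeq2. For sgBcl-2 against sgNT they moved from 970 and 622 to 45 and 19 with all 10 MEF libraries, and to 110 and 46 or 167 and 31 without the sgNT library of MEF line 1 or 2. For sgNT against WT they were 52 and 16 with all 10 MEF libraries, 4245 and 4179 without the first WT library and 958 and 686 without the second. At the depth of these libraries, genes with fewer than 20 reads in the lines, such as Anxa2, carry large relative counting errors there. The causes of these changes were not tested.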
